A study of Apis mellifera with 6 samples.

Results

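The genes *Hsp90*, *Cdc37* and *Hsc70-4* of the cytosolic chaperone machinery were followed across honey bee midguts kept at 35 °C or at 45 °C. They were chosen by gene ID, as the rows named exactly *Hsp90*, *Cdc37* or *Hsc70-4*, and make up 3 of the 10151 genes listed. Poly(A)-selected RNA from individual midguts of *Apis mellifera* was sequenced, with 3 libraries for each temperature. By the labels, bees of both groups spent 4 h at their temperature and were fed sucrose solution with 0.5% DMSO, so the control bees carried the solvent too. By their labels the controls are re-analysed libraries of another series, which the heated libraries are not, so an effect of temperature and one of the series cannot be told apart in any comparison below. The study's methods give a longer feeding time for DMSO controls of its other datasets, so the feeding time of these reused controls is unclear and may differ from that of the heated bees. The study's methods describe bees collected at the landing boards of outbred colonies, and the labels give no strain or age.

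Hsp90 is an ATP-driven dimer that acts late in folding, on proteins that are already partly folded, among them many protein kinases and steroid hormone receptors. Cdc37 is its kinase-specific co-chaperone, which binds kinases and brings them to Hsp90. Hsc70-4 is, in *Drosophila*, the constitutively made cytosolic Hsp70 cognate, which binds unfolded stretches early and can pass clients on to Hsp90. The genes for Hsp90 and for inducible Hsp70s are well-known targets of heat shock factor, the transcription factor of the heat shock response. The midgut is the part of the bee intestine where food is digested and absorbed, through an epithelium that stem cells renew.

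All 3 genes were far higher in the heated midguts, and in none of them did the libraries of the 2 temperatures overlap. Of all 10151 genes, 13.1% passed the threshold in the higher direction, which was an adjusted p below 0.05 and a log2 fold change above 1 in limma, and 26.8% had every 45 °C library above every 35 °C library. Against these shares, 3 of 3 members passed the threshold and 3 of 3 had separate groups. *Hsp90* had the largest fold change of the 3 and *Cdc37* and *Hsc70-4* rose by nearly the same factor. The values below are normalized counts, that is, reads per gene divided by a factor that scales each library. As no transcript lengths were used, levels were not compared between genes.

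*Hsp90*, also listed under the synonym *Hsp83* in the gene table, had 43592, 19949 and 11776 normalized counts in the 35 °C replicates 1, 2 and 3. At 45 °C it had 671929, 593271 and 561035. Thus the control midguts were widely spread and the heated ones lay close together. The mean rose from 25106 ± 16523 (SD, n = 3) to 608745 ± 57044 (SD, n = 3), a log2 fold change of 4.80 ± 0.44 (SE) with a Benjamini-Hochberg adjusted p of 3.09e-04 in limma. The lowest heated midgut was still 12.9-fold above the highest control. By log2 fold change *Hsp90* ranked 37 among all genes, and the ratio of its group means was 24.2.

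*Cdc37*, the kinase co-chaperone, had 5166, 3755 and 3522 normalized counts at 35 °C. The heated midguts had 38965, 35290 and 40553. Its log2 fold change was 3.22 ± 0.17 (SE), with a Benjamini-Hochberg adjusted p of 3.15e-05 in limma, and its mean went from 4148 ± 890 (SD, n = 3) to 38269 ± 2699 (SD, n = 3). The groups stood apart by a factor of 6.83 between their nearest libraries. It ranked 172 by log2 fold change, with a ratio of means of 9.23.

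*Hsc70-4* carries the name of the *Drosophila* cytosolic Hsp70 cognate, while the study's supplement calls it a putative *Hsp68* and measured it by qPCR. Which *Drosophila* Hsp70 it matches was not tested. *Hsc70-4* had 71028, 58854 and 49953 normalized counts at 35 °C. At 45 °C the replicates had 633784, 617451 and 493328. The heated replicate 3 was the lowest of its group and still far above every control. The log2 fold change was 3.28 ± 0.26 (SE), with a Benjamini-Hochberg adjusted p of 1.41e-04 in limma, and the mean went from 59945 ± 10580 (SD, n = 3) to 581521 ± 76813 (SD, n = 3). The nearest libraries of the 2 groups were 6.95-fold apart, the rank was 159 and the ratio of means was 9.70. Hsp70 genes form a family with near-identical copies, and since the counting of reads shared between copies is not stated, the values of *Hsc70-4* are uncertain to that extent. In whole midguts, more transcript per cell and more cells of a type that holds the transcript cannot be told apart.

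**Figure D1:**
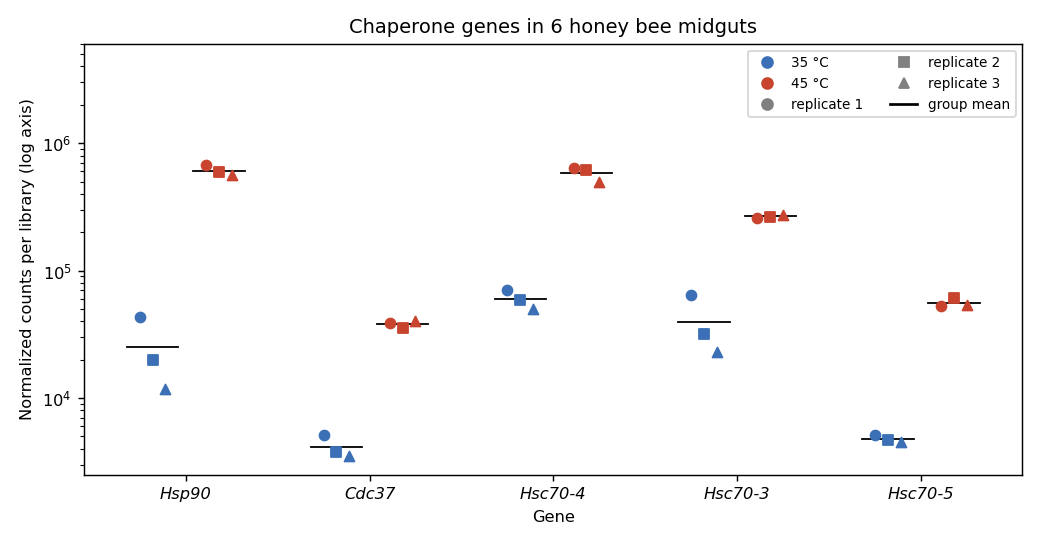
Normalized counts (log axis) of *Hsp90*, *Cdc37* and *Hsc70-4* and of the organelle genes *Hsc70-3* and *Hsc70-5* in each library, with circles, squares and triangles for replicates 1, 2 and 3 and a bar for the group mean. The 45 °C libraries of each gene lie above all its 35 °C libraries, and the 35 °C points of *Hsp90* spread over a 3.70-fold range while its 45 °C points spread over a 1.20-fold range.

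**Figure D2:**
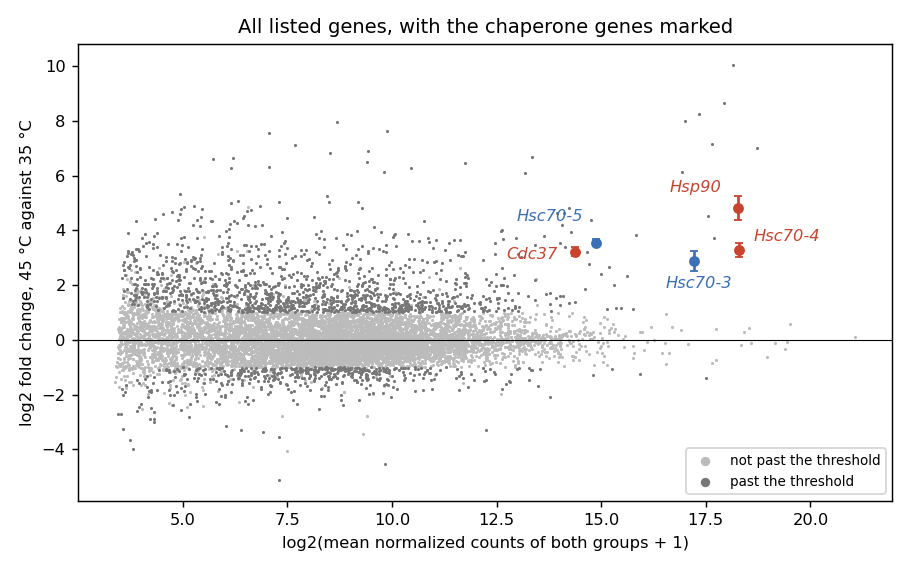
Log2 fold change of each listed gene (45 °C against 35 °C) over log2(mean normalized counts of both groups + 1), with *Hsp90*, *Cdc37* and *Hsc70-4* in red, *Hsc70-3* and *Hsc70-5* in blue, and bars of 1 SE. The 3 red points lie at 4.80, 3.22 and 3.28, while the median over all genes was -0.006.

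The control midguts differed from each other most in *Hsp90*. Its highest 35 °C value was 3.70 times its lowest, against 1.47 times for *Cdc37* and 1.42 times for *Hsc70-4*. The coefficient of variation fell from 65.8% at 35 °C to 9.37% at 45 °C for *Hsp90*, from 21.5% to 7.05% for *Cdc37* and from 17.6% to 13.2% for *Hsc70-4*. The SD of the *Hsp90* log2 values at 35 °C, 0.95, was exceeded by 52 of the 2496 genes that averaged 1000 normalized counts or more there. For *Cdc37* and *Hsc70-4* the corresponding numbers were 574 and 733 genes. Spreads of 3 libraries are themselves imprecise, and the difference between the temperatures in spread was not tested.

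The same control midgut was highest and the same was lowest for each of the 3 genes. Replicate 1 stood 1.01, 0.34 and 0.26 above the log2 mean of the 35 °C libraries for *Hsp90*, *Cdc37* and *Hsc70-4*. The deviations of replicate 3 were -0.88, -0.21 and -0.25. Of all listed genes, 21.2% had replicate 1 highest and replicate 3 lowest at 35 °C, so the shared order is a common one. At 45 °C the order was not shared, since replicate 1 was highest for *Hsp90* and *Hsc70-4* and replicate 3 for *Cdc37*.

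Ratios within a library do not depend on how libraries are scaled, so the balance between chaperones and co-chaperone was compared in this way. Here the ratios are of reads, not of transcripts, so only their change between temperatures can be read. In the heated midguts *Cdc37* was lower relative to *Hsp90*, *Hsp90* was higher relative to *Hsc70-4*, and the ratios of *Cdc37* to *Hsc70-4* overlapped. With 3 libraries against 3, a two-sided exact permutation test cannot give a p below 0.1, so no ratio could pass a threshold of 0.05.

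The ratio of *Cdc37* to *Hsp90* reads was 0.119, 0.188 and 0.299 in the 35 °C replicates. In the 45 °C replicates it was 0.058, 0.0595 and 0.0723. Every heated midgut was thus below every control. The log2 ratio changed by -1.58 ± 0.40 (SE, n = 3 per group), a 2.99-fold lower ratio, with an exact permutation p of 0.1 and 0.15 after Benjamini-Hochberg adjustment over the 3 ratios. Over the 9 pairs of a heated and a control library, the difference ran from -2.37 to -0.71.

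The ratio of *Hsp90* to *Hsc70-4* reads was 0.614, 0.339 and 0.236 at 35 °C. It was 1.06, 0.961 and 1.14 at 45 °C. The groups were again apart, now with the heated midguts above. The log2 ratio was higher by 1.52 ± 0.41 (SE, n = 3 per group), a factor of 2.87, with an exact permutation p of 0.1 and an adjusted value of 0.15, and the 9 pairs of libraries ran from 0.65 to 2.27.

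The ratio of *Cdc37* to *Hsc70-4* reads was 0.0727, 0.0638 and 0.0705 at 35 °C. The heated midguts had 0.0615, 0.0572 and 0.0822, so they held both the lowest and the highest value of the 6. The change in the log2 ratio was -0.06 ± 0.17 (SE, n = 3 per group), with an exact permutation p of 0.8, also after adjustment. Single library pairs differed by -0.35 to 0.37. This range over pairs is not an interval for the change in the mean, so a change in either direction was not settled.

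**Figure D3:**
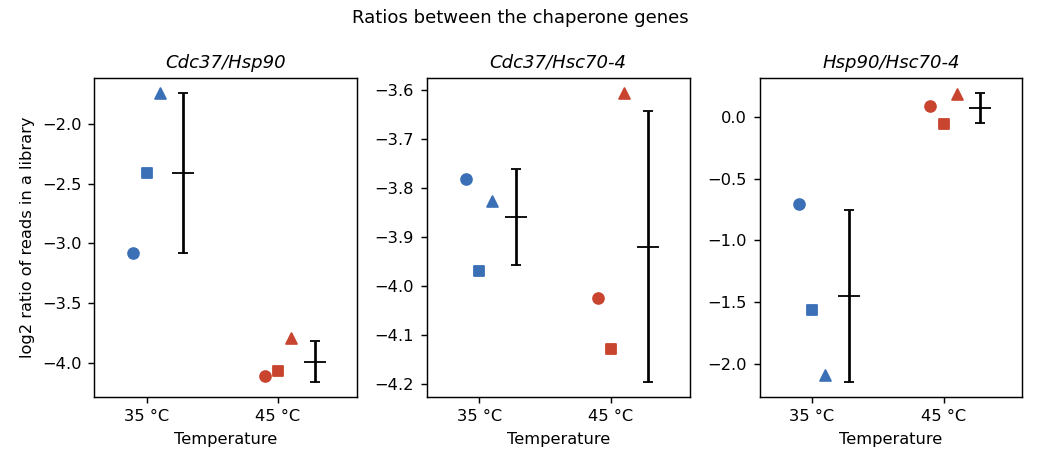
Log2 ratios of reads between *Cdc37*, *Hsp90* and *Hsc70-4* within each library at 35 °C (blue) and 45 °C (red), with circles, squares and triangles for replicates 1, 2 and 3 and bars for the mean ± SD; the 3 panels have their own vertical scales. The ratios to *Hsp90* separate the temperatures, with changes of -1.58 for *Cdc37*/*Hsp90* and 1.52 for *Hsp90*/*Hsc70-4*, while *Cdc37*/*Hsc70-4* overlaps with a change of -0.06.

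The share of all reads on listed genes shows how much of a midgut library the chaperones took. The 35 °C libraries held 23305758 to 26279130 such reads and the 45 °C libraries 24690115 to 26921417, and intervals below cover counting error only. *Hsp90* took 0.201%, 0.0897% and 0.0538% of the reads at 35 °C. At 45 °C it took 2.15%, 2.12% and 2.08%. The smallest of these shares had a 95% Wilson interval of 0.0529% to 0.0547%, so differences between the control midguts were far wider than counting error. The mean share was higher by 2.00 percentage points, going from 0.115% ± 0.0765 to 2.12% ± 0.0327 (SD, n = 3), with an exact permutation p of 0.1.

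*Hsc70-4* took 0.327%, 0.265% and 0.228% of the reads in the controls. The heated midguts had 2.03%, 2.20% and 1.83%. Thus its mean share was higher by 1.75 points, going from 0.273% ± 0.0499 to 2.02% ± 0.185 (SD, n = 3; exact permutation p = 0.1), and its smallest share had a Wilson interval of 0.226% to 0.230%. *Cdc37* took 0.0238%, 0.0169% and 0.0161% at 35 °C. It took 0.125%, 0.126% and 0.151% at 45 °C. The co-chaperone accordingly stayed a small part of the reads, with a difference in the mean of 0.115 points (exact permutation p = 0.1) and a Wilson interval of 0.0156% to 0.0166% on its smallest share.

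Together the 3 genes went from 0.551%, 0.371% and 0.298% of a control library to 4.30%, 4.44% and 4.07% of a heated one. The mean went from 0.407% ± 0.130 to 4.27% ± 0.190 (SD, n = 3), which is a 10.5-fold larger share (exact permutation p = 0.1, the smallest possible, and 0.1 after adjustment over these 4 shares). Over all genes, 3259 gained share of reads and gained 27.1 percentage points between them. Of that gain, 7.37% went to *Hsp90*, 6.44% to *Hsc70-4* and 0.423% to *Cdc37*. Only LOC724488 and LOC724367, small heat shock protein genes of the study, gained more points than *Hsp90*, and *Hsc70-4* came next after it, in shares of reads that are not scaled by transcript length. Because shares of a library sum to the whole, the gain of these genes lowers the shares of others.

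**Figure D4:**
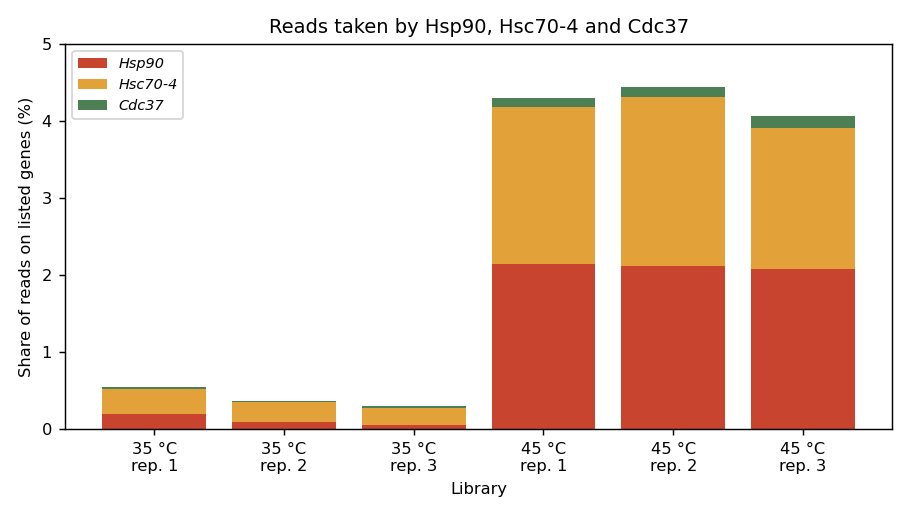
Share of reads on listed genes (%) taken by *Hsp90* (red), *Hsc70-4* (orange) and *Cdc37* (green) in each library, stacked from 0. The 35 °C stacks reach 0.298% to 0.551% and the 45 °C stacks 4.07% to 4.44%, with *Hsp90* at about the same height in each heated library, 2.08% to 2.15%.

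Small heat shock proteins are chaperones without ATPase activity that hold unfolding proteins. Of 9 gene IDs for them, taken from the study, 8 passed the threshold in the higher direction, beside 13.1% of all genes. LOC410857 was among the 8, at a log2 fold change of 3.20 ± 0.24 (SE) with an adjusted p of 1.14e-04 in limma. The study differs here, as it excepts this gene from the homologs induced by heat in its dataset. By qPCR it reports the transcripts of LOC410857 as unchanged after heat shock. The reason for this difference was not tested. *Hsp90* had 1.31, 0.564 and 0.311 reads for each read on the 9 small heat shock protein gene IDs at 35 °C, and 0.214, 0.186 and 0.204 at 45 °C. For *Hsc70-4* the ratio went from 2.136, 1.665 and 1.32 to 0.202, 0.193 and 0.179. In both cases every heated midgut was below every control. *Cdc37* moved the same way, from 0.155, 0.106 and 0.0931 to 0.0124, 0.0110 and 0.0147. These ratios were not tested.

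Among the Hsp70 genes of other compartments, *Hsc70-3*, the endoplasmic reticulum chaperone known as BiP, had 63805, 31953 and 23064 normalized counts at 35 °C and 259282, 265404 and 273940 at 45 °C. Its log2 fold change was 2.88 ± 0.36 (SE; limma, Benjamini-Hochberg adjusted p = 0.00111). *Hsc70-5*, the mitochondrial Hsp70, had 5130, 4667 and 4529 against 52905, 60423 and 53876, a log2 fold change of 3.54 ± 0.13 (SE; limma, adjusted p = 6.77e-06). Thus both organelle genes rose too. All 5 chaperone genes that carry an Hsp90, Cdc37 or Hsc70 symbol, the 3 members among them, were called higher, beside 13.1% of all genes. Their median log2 fold change was 3.28, against -0.006 over all genes. *Hsc70-3* resembled *Hsp90* in the controls, since replicate 1 had 2.77 times the value of replicate 3.

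Reads of *Hsp90* for each read of *Hsc70-3* came to 0.683, 0.624 and 0.511 at 35 °C and 2.59, 2.24 and 2.05 at 45 °C. The change of 1.92 ± 0.16 (SE, n = 3 per group) in the log2 ratio thus had a smaller error than that of *Hsp90* alone (exact permutation p = 0.1, 0.2 after adjustment over 6 such ratios). The *Hsp90* to *Hsc70-5* ratio was apart as well, with a log2 change of 1.26 ± 0.51 (SE). *Hsc70-4* overlapped with both organelle genes, with log2 changes of 0.40 ± 0.32 against *Hsc70-3* (exact permutation p = 0.3) and -0.26 ± 0.15 against *Hsc70-5* (exact permutation p = 0.2). For *Cdc37* the change against *Hsc70-3* was 0.34 ± 0.27 with overlap and that against *Hsc70-5* was -0.32 ± 0.17 without overlap.

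Against genes often used as references, the direction did not depend on which was chosen. *RpL32*, a ribosomal protein gene, *Arp1*, an actin gene, and the elongation factor genes *Ef-1a-f1* and *EF1a-F2* gave log2 changes of 4.26 to 5.38 for *Hsp90*, 2.68 to 3.80 for *Cdc37* and 2.74 to 3.86 for *Hsc70-4*. In each of these 12 ratios every heated midgut was above every control (exact permutation p = 0.1 for each). *Arp1* was the reference with the widest effect, as its own log2 fold change was -0.57 ± 0.31 (SE; limma, adjusted p = 0.186).

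Of the 3 other folding and Hsp90-adaptor genes with a symbol, 0 passed the threshold in limma or in DESeq2. In limma 1828 of all 10151 genes passed it in either direction, so 0 of so few genes is not read as a result. The median log2 fold change of the 3 genes was -0.20 against -0.006 over all genes. An unadjusted p under 0.05 in limma was reached by 1 of them, and by 48.8% of all 10151 genes. *PIH1D1*, which in human is part of a complex that links Hsp90 to the assembly of large protein complexes, had 193, 161 and 187 normalized counts at 35 °C and 116, 126 and 127 at 45 °C. With a log2 fold change of -0.55 ± 0.17 (SE; limma, adjusted p = 0.0341) its groups were apart but the fold was under the minimum. *Ppib*, a prolyl isomerase of the endoplasmic reticulum, had 0.12 ± 0.15 (SE; limma, adjusted p = 0.545). *STT3B*, a subunit of the oligosaccharyltransferase that attaches sugars to new proteins, had -0.20 ± 0.20 (SE; limma, adjusted p = 0.476).

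Of 5 genes with a symbol in classes of Hsp90 clients in other animals, 0 passed the threshold in either direction in limma or DESeq2. Over all 10151 genes 1828 passed it in limma, so 0 of so few genes is not read as a result. An unadjusted p under 0.05 in limma was reached by 3 of the 5, beside 48.8% of all genes. The ecdysone receptor *Ecr*, a nuclear hormone receptor, had 5908, 7418 and 7310 normalized counts at 35 °C and 10852, 10565 and 13740 at 45 °C. Its groups were apart, at a log2 fold change of 0.77 ± 0.16 (SE; limma, adjusted p = 0.00833), under the minimum fold. The telomerase gene *Tert* had -0.70 ± 0.22 (SE; limma, adjusted p = 0.041) and the kinase gene *c-mos* 0.90 ± 0.25 (SE; limma, adjusted p = 0.0263), also without overlap. For *NOS*, which makes nitric oxide, the value was -0.19 ± 0.26 and for the insulin receptor gene *InR-2* 0.61 ± 0.31, with adjusted p of 0.597 and 0.148 in limma. The groups of *InR-2* were apart, with the heated midguts above, while those of *NOS* overlapped. The median of the 5 was 0.61.

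Protein kinases are the clients that Cdc37 serves. Of 9 kinase genes with a symbol 0 passed the threshold in limma or in DESeq2, beside 1828 of all 10151 genes in limma. Shares over so few genes, here and below, are not read as differing from those of all genes. The median log2 fold change of the 9 was 0.56. An unadjusted p under 0.05 in limma was found for 4 of the 9, again beside 48.8% of all genes. Beside *c-mos*, these were *EphR*, the Eph receptor tyrosine kinase, at 0.86 ± 0.27 (SE; limma, adjusted p = 0.037), *Camkii*, a calcium- and calmodulin-dependent kinase, at 0.56 ± 0.20 (SE; limma, adjusted p = 0.0545), and *Cdk5*, a kinase of the cyclin-dependent family, at 0.56 ± 0.13 (SE; limma, adjusted p = 0.0111). *Cdk5* had 538, 640 and 618 normalized counts at 35 °C and 886, 830 and 931 at 45 °C, without overlap. *Camkii* did not overlap either, whereas *EphR* did. Other kinase genes of the list were lower or little changed. *ROCK2* had -0.24 ± 0.13 (SE; limma, adjusted p = 0.186), with every heated midgut below every control. *Ripk5* had -0.23 ± 0.16 (SE; limma, adjusted p = 0.297), *Pkc* 0.12 ± 0.24 (SE) and *For* 0.06 ± 0.15 (SE), each with overlap. Kinase genes that carry only a locus number were not in the list.

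The genes with the profiles most like each member were found by the root mean square difference of log2(value + 1) over the 6 libraries, each gene set to 0 at its 35 °C mean. For *Hsc70-4* the nearest was LOC102653708, with a difference of 0.081, followed by LOC100576106 with 0.135 and LOC408853 with 0.168. For *Cdc37* they were LOC409664 with 0.125, LOC411982 with 0.160 and, again, LOC102653708 with 0.171. *Cdc37* and *Hsc70-4* were themselves 0.175 from each other, close to the third gene in either list. *Hsp90* had no such near gene, since LOC107965095, LOC102654344 and LOC408706 came to 0.304, 0.359 and 0.393, and it was 1.19 from *Cdc37* and 1.15 from *Hsc70-4*. At 35 °C LOC107965095 averaged only 48 normalized counts. LOC102654344 averaged 0.904 there, so its profile depends largely on the added 1.

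The genes beside the members on the chromosome were taken from the order of the gene table, and none of them overlaps a member there. This order is that of assembly Amel_HAv3.1, whereas the study mapped its reads to another assembly. Whether the neighbours are the same in that one was not tested. *Hsc70-4* was the member with a strongly raised neighbour, LOC727596, which went from 288 ± 91.0 to 1100 ± 190.5 normalized counts (SD, n = 3), a log2 fold change of 1.96 ± 0.24 (SE; limma, adjusted p = 9.29e-04). On its other side, LOC409417 had -0.41 ± 0.13 (SE; limma, adjusted p = 0.0386). LOC552259, beside *Hsp90*, had -0.10 ± 0.17 (SE; limma, adjusted p = 0.669), while LOC406124 on its other side rose from 6.17 ± 3.14 to 18.3 ± 4.31 (SD, n = 3), at 1.49 ± 0.50 (SE; limma, adjusted p = 0.047). Neither neighbour of *Cdc37* passed the threshold, with LOC413351 and LOC724599 at -0.25 ± 0.13 and -0.17 ± 0.14 (SE).

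In the whole table, counts of 1327 genes higher and 501 lower passed the threshold. Libraries of 1 temperature had Spearman correlations across genes of at least 0.973 and those of different temperatures at most 0.927, and no library was a copy of another. The midgut label was checked against 4 digestive and gut genes with a symbol, whose summed level was 1029425 to 1447814 normalized counts at 35 °C and 1310513 to 1576299 at 45 °C. The lists for other tissues were summed at 7647 or less in every library, and no marker was at 0 in all libraries. Of these, the 5 fat body markers had sums of 643 to 834 at 35 °C and 923 to 1406 at 45 °C. *Vg* and *Hex110* were past the threshold in the higher direction, beside 13.1% of all genes, though the *Vg* libraries of the 2 temperatures overlapped. *HEX70b* went the other way without overlap, at a log2 fold change of -0.91 ± 0.27 (SE; limma, adjusted p = 0.0297), under the minimum fold. *Hex70a* and *Hex70c* had 0.18 ± 0.26 and 0.0035 ± 0.59 (SE), each with overlap. The haemocyte gene *PPO* had 54.2 to 65.3 and 97.3 to 111 normalized counts, not past the minimum fold. Of 7 muscle genes 2 were called lower, and of 2 enteroendocrine genes 1, with sums that overlapped, as did those of 3 hypopharyngeal gland genes. Over all 10151 genes 501 were called lower, and counts over so few markers are not read as differing from the shares of all genes. The 3 neuron genes had sums of 261 to 395 and 393 to 969, and the part of these tissues in the changes of the chaperone genes was not tested.

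All 3 genes remained past the threshold, in the same direction, under each of 20 other settings of the comparison. Dropping the filter on low values could not alter this, since no listed gene averaged below 9.45 normalized counts. Nor could dropping the minimum fold change, which only loosens the threshold. *Hsp90* ranged from 4.21 with library size alone to 5.31 without the 35 °C replicate 1, *Cdc37* from 2.82 with library size alone to 3.39 without that replicate, and *Hsc70-4* from 2.62 after quantile normalization to 3.41 without it. Thus the control with the most chaperone reads lowered each fold change, and most so for *Hsp90*. Library size alone moved the median of all genes to -0.39, and the fold changes of the 3 genes moved down with it.

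**Figure D5:**
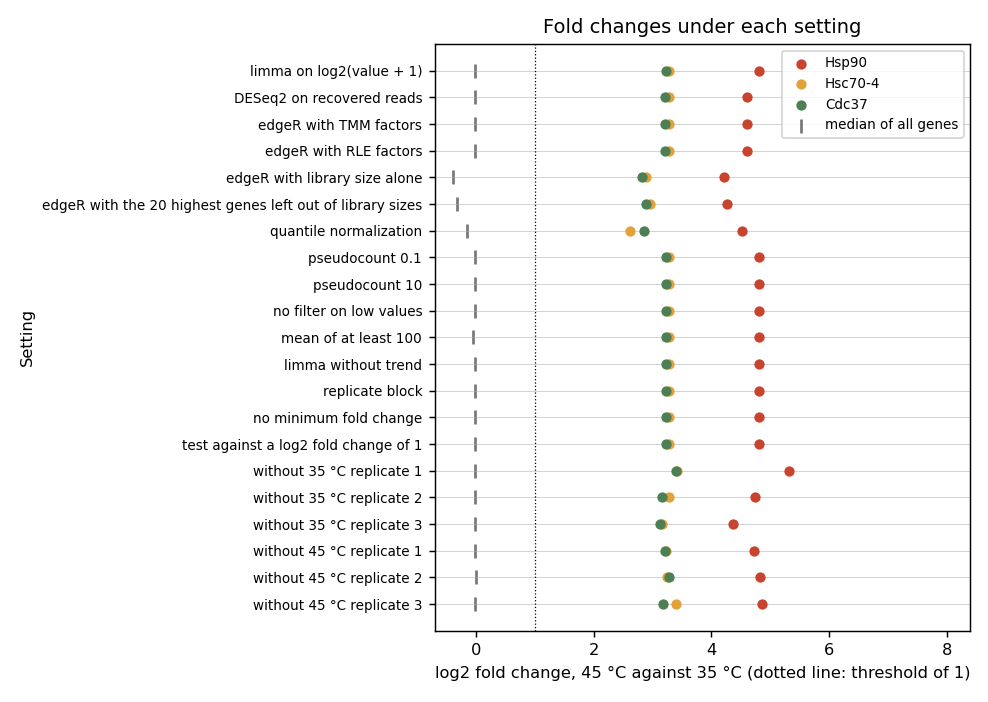
Log2 fold change of *Hsp90* (red), *Hsc70-4* (orange) and *Cdc37* (green) under each of the settings on the vertical axis, with a grey tick for the median of all genes and a dotted line at the minimum log2 fold change of 1. Each coloured point lies to the right of the dotted line, from 2.62 to 5.31.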

How the data were processed

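RNA of 6 individual honey bee midguts, 3 per temperature, was analysed. Reads were paired-end, from NEBNext Ultra libraries on an Illumina HiSeq. The submitters' processing notes name Trimmomatic 0.36, STAR, Subread and DESeq2, whereas strand and annotation release were not given in the sources used here. As deposited, the signal values are, per the authors' methods and the values themselves, gene counts that were divided by each library's DESeq2 size factor, in 3 tables of 2 libraries normalized together. All values were whole multiples of 1 step within 0.01 read, which gave back size factors of 0.812 to 1.18, the reads per gene and the totals printed in the report. The lowest total of a gene was 61 reads. Columns of the authors' own comparisons were not used.

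The main test was limma (version 3.58.1, R 4.3.3) with temperature as the only term, a trended empirical Bayes prior and values as log2(value + 1), for genes with a mean of at least 1, with Benjamini-Hochberg adjustment over all 10151 genes. A call needed an adjusted p under 0.05 together with a log2 fold change beyond 1 in size. Ratios and shares were compared with two-sided exact permutation tests over libraries (scipy 1.17.1), and shares have 95% Wilson intervals. Nothing says that the midguts of a temperature came from separate cages, so p-values measure the spread between these libraries. The code was tested on simulated data.

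The 3 genes and the lists were chosen with earlier results of these data known. The lists planned by gene description could not be matched, since the gene table (assembly Amel_HAv3.1, which holds 9300 of the 10151 IDs, or 91.6%) has symbols and synonyms only, and lists of symbols were drawn up from it after the files were seen. The genes named were the members, the 3 nearest profiles of each, the neighbours in the table's order, and the list genes described. Alternatives were edgeR 4.0.16 and DESeq2 1.42.0 on the recovered reads, other scalings, filters, pseudocounts and thresholds, the replicate number as a block, and each library left out.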

Additional observations from a re-analysis of the deposited data

How the results depend on the processing

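The 3 members, and *Hsc70-3* and *Hsc70-5*, stayed past the threshold under all 20 alternatives of the fit, some of which could not alter it. The highest adjusted p of a member was 0.00238, for *Hsp90*. With each library left out in turn, the log2 fold change of *Hsp90* ran from 4.36 to 5.31, of *Cdc37* from 3.12 to 3.39 and of *Hsc70-4* from 3.16 to 3.41. Genes called higher, 1327, became 838 with library size alone, 872 with a mean of at least 100, 2143 with no minimum fold change and 382 when limma tested for changes beyond a log2 of 1, and 1177 to 1309 with a library left out. Genes called lower, 501, became 1625 with library size alone, 1379 with library sizes that omit the 20 highest genes, 801 after quantile normalization, 1844 with no minimum fold change and 13 in the test beyond a log2 of 1, and 382 to 545 with a library left out. Of the calls, 72.6% were higher, against 34.0% with library size alone, 39.5% with the 20 highest left out and 57.3% after quantile normalization, and the median over all genes was then -0.39, -0.33 and -0.15.

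With no minimum fold change, 1 folding or adaptor gene was called lower, 2 client genes higher and 1 lower, and 3 kinase genes higher. With library size alone 1 client gene was called lower, and after quantile normalization 1 reference gene. Leaving out a library gave 0 to 1 client genes higher (1 without the 35 °C replicate 3 or the 45 °C replicate 2) and 0 to 2 kinase genes higher (1 without the 35 °C replicate 1 or 3, and 2 without the 45 °C replicate 2).

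The log2 change of *Cdc37*/*Hsp90* ran from -1.91 to -1.25 and that of *Hsp90*/*Hsc70-4* from 1.20 to 1.89 with a library left out. That of *Cdc37*/*Hsc70-4* ran from -0.22 to 0.045, reversed without the 45 °C replicate 2. The share of reads was higher by 2.25, 0.1305 and 1.985 points for *Hsp90*, *Cdc37* and *Hsc70-4* with the 9 small heat shock protein gene IDs left out of the total, and by 3.285, 0.1888 and 2.878 points with the 20 highest genes left out. Leaving these out shrinks the denominator, mainly at 45 °C for the first.

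Replicate numbers were shared by the groups but not tied to a cage or day, and deviations of same-numbered libraries correlated at 0.154, 0.016 and 0.005, so the numbers were not taken as pairs. The replicate block gave 1348 genes higher and 524 lower and left the members' log2 fold changes at 4.80, 3.22 and 3.28, with adjusted p of 4.13e-04, 1.33e-04 and 4.96e-04. Paired by number, the exact p of the shares and of the ratios with *Hsp90* was 0.25, the smallest possible. Depth was no limit for the members, whose lowest count was 3989 reads, whereas 3 libraries per group, and temperature shared with the series of origin, were.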
